A study of Rattus norvegicus with 36 samples.

Results

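Transcripts of stratified squamous epithelium were present at very different levels among 36 rat thyroid samples, and the 12 arrays with the most *Krt13* were compared with the 12 arrays with the least. The arrays were chosen by ranking all 36 by the probe for *Krt13*, a type I keratin of stratified squamous mucosa. Thus 24 of the 36 arrays entered the comparison. A level is the log2 processed signal of a probe minus the 75th percentile of the same array, a log2 difference of 1 being a doubling. Since the ranking used a measured transcript, the *Krt13* levels and the differences between both sets of arrays describe these arrays. They are not evidence on any treatment.

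Each array held RNA from the thyroid of 1 adult male Sprague Dawley rat, killed 24 h after 131I was injected into the tail vein. The 9 groups of 4 rats received 9, 88, 170 or 260 kBq, the higher activities of 340, 760, 1300 and 4700 kBq, or saline without 131I (the controls, 0 kBq). All were healthy rats of 1 outbred strain and were anaesthetised with sodium pentobarbital at the end. The study asked which transcripts of the thyroid respond to 131I. The 75th percentile of the signal ranged from 1564 to 4288 between arrays, 62.6 to 91.0% of the probes were well above background, and no spot was saturated. The number of arrays sets the precision, as no counts underlie these values.

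Stratified squamous epithelium is renewed from a basal layer, where *Krt5* and *Krt14* form the keratin filaments and hemidesmosomes anchor the cells to the basement membrane. Cells that move outwards switch to other keratin pairs, *Krt4* with *Krt13* in mucosa such as that of the oesophagus and *Krt1* with *Krt10* in epidermis. They are joined by desmosomes and finally cross-link small proteins into a cornified envelope under the plasma membrane. The normal thyroid gland consists of follicles of simple epithelium, which carries *Krt8*, *Krt18*, *Krt7* and *Krt19* instead, and the gland lies against the trachea, the oesophagus and the strap muscles of the neck.

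The upstream sequences of *Krt4* and *Krt5* are shown because these genes stand for the outer and the basal cells in the values below and lie on the same chromosome. The RefSeq promoter table had no entry for *Krt13*. Each line gives the 250 bases before the transcription start (build GRCr8, minus strand for both genes, chr7:134930714-134930963 for *Krt4* and chr7:134730570-134730819 for *Krt5*). Capitals mark matches to TGANTCA (AP-1 element), GCCNNNGGC (AP-2 element) and TATAA (core of the TATA box), searched on both strands.
Krt4: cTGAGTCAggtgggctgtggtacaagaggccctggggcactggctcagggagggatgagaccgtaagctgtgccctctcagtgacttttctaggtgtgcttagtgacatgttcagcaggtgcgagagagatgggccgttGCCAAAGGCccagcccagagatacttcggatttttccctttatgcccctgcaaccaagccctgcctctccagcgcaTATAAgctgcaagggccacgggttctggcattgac
Krt5: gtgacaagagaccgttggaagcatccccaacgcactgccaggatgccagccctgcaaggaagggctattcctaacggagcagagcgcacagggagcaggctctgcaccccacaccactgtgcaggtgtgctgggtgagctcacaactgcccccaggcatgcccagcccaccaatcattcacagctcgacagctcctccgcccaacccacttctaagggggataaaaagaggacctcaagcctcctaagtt

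The *Krt4* window held 1 match to each of the 3 motifs, and the *Krt5* window held none of these letters. Of 97 squamous genes that were higher on the high arrays (85 with a RefSeq name and 12 named from the supplementary column, described below), 64 had a promoter in the table. The AP-1 element was found in 15.6% of these 64 windows and in 6.34% of all 33469 windows of this length, the AP-2 element in 21.9% and 12.6%, and TATAA in 29.7% and 24.0%. A match gives letters in a window and does not show a bound site.

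*Krt13* divided the arrays at a gap rather than along a slope. On the 12 high arrays its level was 4.09 at the lowest, 6.39 at the median and 6.99 at the highest. On the 12 low arrays the corresponding levels were -7.73, -6.26 and -5.70, and 5 of these arrays were not well above background for the probe. The last array inside the high set was rat 3 of the 1300 kBq group (4.09), and the first outside was rat 1 of the 260 kBq group (3.42). Rat 2 of the 260 kBq group followed at -0.32, after a step of 3.74, and every other array was at -3.17 or lower. The boundary of the low set lay within a continuum, with -5.33 just outside and -5.70 just inside. Thus 13 arrays had clearly high *Krt13*, 1 was intermediate and 22 were low.

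The keratin partner *Krt4* followed *Krt13* from array to array. All 12 arrays with the most *Krt4* were those with the most *Krt13*, whereas 8 of the 12 arrays with the least *Krt4* were in the low set. *Krt4* was 4.16 at the lowest, 6.46 at the median and 7.15 at the highest on the high arrays, against -5.55, -4.71 and -2.98 on the low arrays, so the sets did not overlap. The order of the high arrays by *Krt4* was that by *Krt13*, except that rat 2 of the 760 kBq group and rat 3 of the 9 kBq group changed places and rat 1 of the 340 kBq group (*Krt4* 5.14) came lower.

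**Figure D1:**
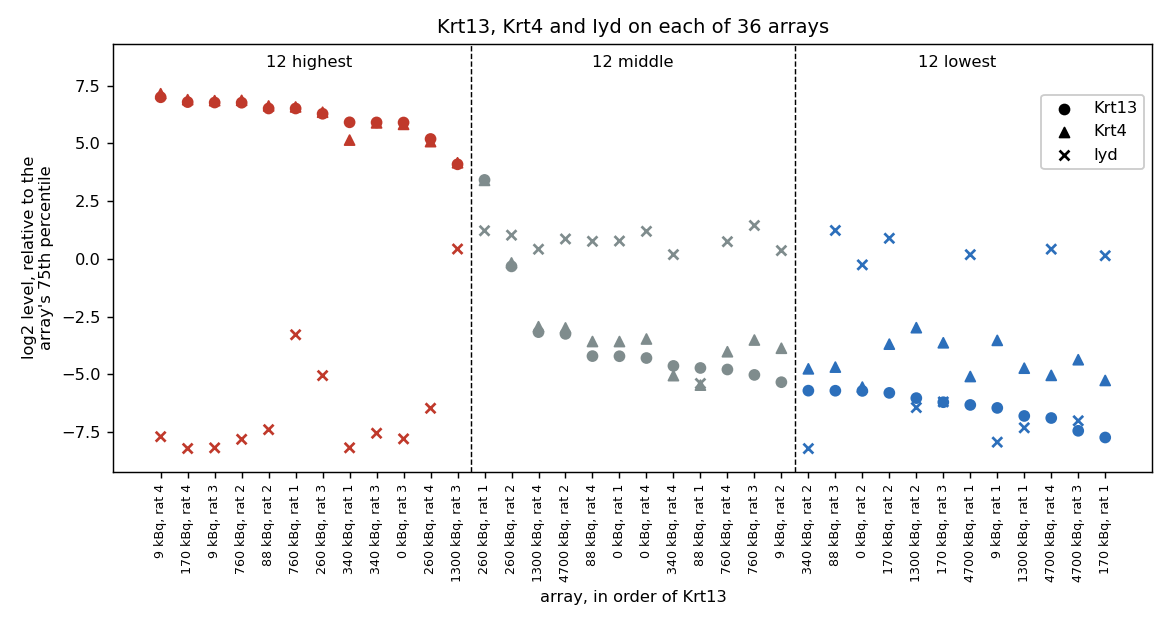
Levels of *Krt13* (circles), *Krt4* (triangles) and *Iyd* (crosses) on each of the 36 arrays, in order of *Krt13*; the y axis is the log2 signal relative to the array's 75th percentile, and dashed lines separate the 12 highest, 12 middle and 12 lowest arrays. *Krt13* and *Krt4* fell together from 6.99 and 7.15 to the gap after rank 13, while *Iyd* was under -3 on 11 of the 12 high arrays and on 6 of the 12 low arrays.

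The injected activity, the slide and the scan day of an array, which the ranking did not use, were each tested for a relation with *Krt13*, and none passed. In the permutation tests the adjusted p was 0.627 for all 3 labels (100000 permutations, unadjusted p = 0.438 for activity, 0.627 for slide and 0.300 for scan day). High arrays came from 8 of the 9 groups, controls included. In the controls *Krt13* was -5.71, -4.29, -4.21 and 5.90. In the 260 kBq group it was -0.32, 3.42, 5.19 and 6.28, which placed all 4 rats among the 14 highest arrays. This group was higher than controls by 5.72 (exact permutation test, p = 0.114, adjusted p = 0.686 over 8 comparisons), with 1 of 4 rats above every control. The 4700 kBq group had no high array and 3 of the 12 low arrays, and its mean was -5.97 against -2.08 in controls (exact permutation test, p = 0.171, adjusted p = 0.686). The smallest p that 4 rats against 4 can give is 0.0286. Within every injected group, these included, the range of *Krt13* exceeded the distance between its mean and that of the controls.

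**Figure D2:**
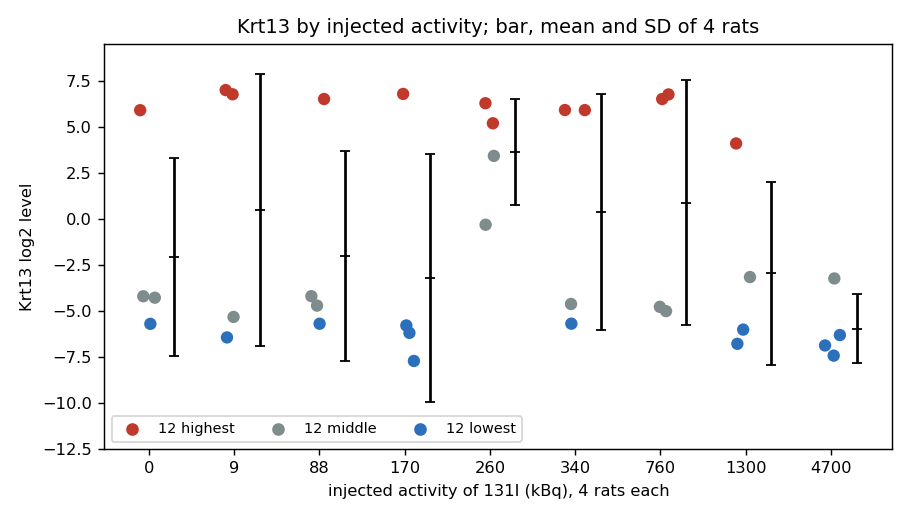
*Krt13* level of each rat (points, coloured by set) against injected activity in kBq; the bars give mean and SD of 4 rats. High arrays occurred in every group except 4700 kBq, and the SD within the 9 kBq group (7.39) was larger than any difference between a group and the controls.

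The thyroid label of the samples was checked against follicle markers, because these differed between the sets. *Iyd*, the iodotyrosine deiodinase of follicular cells and the covariate of the comparison, was under -3 on 11 of the 12 high arrays, on 6 of the 12 low arrays and on 1 of the 12 middle arrays. *Tg*, the thyroid hormone precursor, was -2.78, -0.66 and 7.43 (lowest, median, highest) on the high arrays and -4.51, 5.51 and 7.48 on the low arrays. The medians of both follicle genes were thus lower on the high arrays, and the ranges of the sets overlapped. In bulk tissue, fewer cells of a type and less RNA per cell cannot be told apart.

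Over all probes, more transcripts were higher than lower on the high arrays. Of 30365 probes tested with *Iyd* as covariate (limma, Benjamini-Hochberg adjusted p under 0.01 and fold change of at least 1.5, called below "past the limits"), 2245 were higher (7.39%) and 1329 were lower (4.38%). The higher ones included 400 probes that differed at least 16-fold, and the lower ones none. The sets did not overlap for 402 probes that were higher (1.32%) and for 6 that were lower (0.0198%). The median difference of all probes was -0.13. Because this median is below 0, every probe higher past the limits is bound to lie at least 1.5-fold above it. Of the 1329 lower probes, 937 were as far below it. Centring each array on its median moved the median to -0.31 and the share of higher probes among all past the limits from 62.8% to 32.6%, with 4011 lower probes. The split between both directions therefore depends on the scaling.

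The lower probes also depended on single arrays. Their number became 462 without rat 1 of the 1300 kBq group, 469 without rat 3 of the 4700 kBq group, 722 without rat 2 of the 1300 kBq group, 787 without rat 3 of the 170 kBq group, 885 without rat 2 of the 760 kBq group, 885 without rat 4 of the 9 kBq group and 1996 without rat 3 of the 1300 kBq group. The number of higher probes stayed between 1792 and 2445 when each of the 24 arrays was left out in turn.

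Keratins of stratified epithelium were higher together. Of the 12 listed squamous keratins with a probe named through its RefSeq accession, 10 were higher past the limits and none lower, with a median difference of 6.86 against -0.13 over all probes. Here and in each list below, such counts stand beside 8.75% higher and 4.71% lower among all 15146 genes with a RefSeq name. Counts of genes whose sets did not overlap stand beside 1.32% of all probes in the higher direction. *Krt4* was higher by 10.17 ± 0.33 (SE, 12 arrays per set). The basal keratins showed the same order of difference. *Krt5* was 0.25, 4.08 and 4.45 (lowest, median, highest) on the high arrays and -5.74, -4.51 and -0.10 on the low arrays, a difference of 7.70 ± 0.59. *Krt14*, its filament partner, was 1.56, 5.34 and 6.05 against -5.52, -4.39 and 0.65, higher by 8.90 ± 0.66. *Krt15*, another basal keratin, was higher by 9.68 ± 0.76. In each of these 4 genes the lowest of the high arrays lay above the highest of the low arrays.

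*Krt1*, the epidermal keratin of suprabasal cells, was -2.53, 0.60 and 2.47 on the high arrays and -9.29, -6.41 and -5.41 on the low arrays, higher by 6.23 ± 0.50. *Krt76*, which is found in cornified oral mucosa, was higher by 5.23 ± 0.56. *Krt17*, known from wounded and appendage epithelium, was higher by 8.96 ± 0.78, and *Krt23* by 7.49 ± 0.60. *Krt16*, a keratin of hyperproliferative epithelium, was well above background on 8 of the 12 high arrays and on none of the low arrays, which gives at least 4.61-fold. This bound sets the high arrays' mean against the higher of the dim probe's own level and the lowest level well above background on each low array. *Krt80* was higher by only 0.84 ± 0.22 and lost the limits in 12 of 24 fits that left out 1 array each. *Krt2* (-0.40 ± 0.25) and *Krt24* (0.28 ± 0.29) did not pass. Keratins known from epidermis (*Krt1*) and from mucosa (*Krt4*, *Krt76*) were thus both among the higher transcripts.

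The keratins of simple epithelium, which follicular cells share with gland and airway cells, did not follow this pattern. Of 5 measured, 1 was higher past the limits, *Krt20* by 2.12 ± 0.58, and it passed in 6 of the 24 fits with 1 array left out and under neither quantile normalization nor the authors' matrix. *Krt18* was -5.13, -1.35 and 3.54 on the high arrays and -6.05, 2.01 and 4.68 on the low arrays, with a difference of 0.70 ± 0.90 at equal *Iyd*. *Krt8* (0.79 ± 0.73), *Krt7* (0.99 ± 1.09) and *Krt19* (0.20 ± 0.80) likewise did not pass. For these genes the sets overlapped over most of their range.

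All 11 cornified envelope genes with a RefSeq-named probe were higher past the limits, with a median difference of 6.65, and in all 11 the sets did not overlap. *Sprr3*, a small proline-rich precursor of the envelope in mucosa, was 2.72, 5.24 and 6.33 on the high arrays and -5.58, -5.07 and -4.43 on the low arrays, higher by 9.78 ± 0.36. *Csta*, the cysteine protease inhibitor cystatin A that is built into the envelope, was higher by 10.20 ± 0.37. The low arrays lay within a narrow range for *Sprr3*, whereas for *Csta* they ran from -7.62 to -4.91.

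Enzymes and scaffolds of the envelope were higher as well. *Tgm1*, the transglutaminase that cross-links the envelope, was -1.68, 1.5 and 2.70 against -6.76, -5.77 and -5.01, higher by 6.60 ± 0.34. *Tgm3*, a further transglutaminase, was higher by 7.73 ± 0.44. The plakins *Evpl* and *Ppl*, which tie the envelope to desmosomes, were higher by 5.33 ± 0.56 and 4.14 ± 0.41. The late envelope proteins *Lce1f* and *Lce1m* were higher by 6.65 ± 0.35 and 6.26 ± 0.33. *Ivl*, involucrin, was well above background on 11 of 12 high arrays and on no low array, at least 17.5-fold higher.

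Further envelope genes were named only through the gene column of the supplementary table, which puts transcripts regulated in these samples first and is therefore no independent choice. *Loricrin*, the main envelope protein of epidermis, was 2.79, 5.23 and 6.37 on the high arrays and -7.33, -6.62 and -5.87 on the low arrays, higher by 11.36 ± 0.34. *Rptn* (9.35 ± 0.35) and *Sprr1a* (8.71 ± 0.46) were also higher past the limits, and *Crnn*, a gene of oesophageal epithelium, was not (1.59 ± 0.74). *Crnn* was uneven among the high arrays. It was -3.32 to -1.99 in rat 4 of the 170 kBq, rat 3 of the 9 kBq and rats 1 and 3 of the 340 kBq group. On the other high arrays it was -8.28 to -5.68, and on the low arrays -8.98 to -6.34.

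Junction genes were higher without exception among the 11 of the list with a RefSeq-named probe, at a median difference of 5.0, although the sets overlapped in 7 of them. Without *Iyd* as covariate 7 of the 11 passed, at a median of 3.29, and 10 passed under each other scaling, with injected activity as a block and among the arrays with *Iyd* under -3. *Dsg3*, the desmoglein of basal and mucosal cells, was -4.74, -1.37 and -0.25 on the high arrays and -7.66, -6.91 and -5.20 on the low arrays, higher by 5.0 ± 0.47. *Pkp3*, a desmosomal plaque protein, was higher by 6.81 ± 0.67, and *Perp*, a desmosomal membrane protein, by 7.69 ± 0.81. *Cdh1*, the cadherin of all epithelia, overlapped between the sets, with 0.12, 1.65 and 2.60 against -6.98, -0.77 and 2.43, a difference of 4.53 ± 0.71. The connexins *Gjb6* and *Gjb2* were higher by 6.88 ± 0.81 and 5.56 ± 0.61. *Cldn1*, a tight junction claudin, differed by 0.97 ± 0.26 and passed in 9 of the 24 fits with 1 array left out. Of the junction genes named from the supplementary column, *Pkp1* (9.26 ± 0.44), *Dsp* (7.40 ± 0.80) and *Dsg1* (at least 109-fold, on no low array well above background) were higher.

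Basal layer genes were higher in all 6 that had a RefSeq-named probe, with the smallest median difference among the squamous lists outside the simple keratins, 2.17, and with 2 of 6 not overlapping. With injected activity as a block 3 of the 6 passed, and with slide as a block 5. *Trim29*, a basal cell gene, was -0.70, 2.46 and 3.39 on the high arrays and -8.05, -6.85 and -3.74 on the low arrays, higher by 8.94 ± 0.52. *Fat2*, an atypical cadherin of keratinocytes, was higher by 4.38 ± 0.48. Parts of the hemidesmosome and its laminin were measured on all low arrays as well and differed by less. *Itgb4*, the hemidesmosome integrin, was 2.04, 3.30 and 3.56 against 0.93, 1.85 and 2.53, higher by 1.16 ± 0.23. *Lamb3* was higher by 1.70 ± 0.39, although it no longer passed without rat 1 of the 1300 kBq group (lowest difference over these fits 1.35). *Col17a1*, the hemidesmosomal collagen, named from the supplementary column, was higher by 7.20 ± 0.62.

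Among the transcription factors of squamous cells, 10 of 12 were higher past the limits and none lower, at a median of 3.16, with the sets separate in 2. *Sox2*, which specifies the foregut lining, was -1.88, 2.07 and 3.04 on the high arrays and -6.44, -4.37 and -1.03 on the low arrays, higher by 5.17 ± 0.44. *Pax9*, a factor of pharyngeal and oesophageal epithelium, was higher by 4.31 ± 0.54, *Pitx1* by 2.68 ± 0.33 and *Tfap2a*, which encodes AP-2 alpha, by 4.16 ± 0.34. *Ovol1*, a repressor that acts as keratinocytes differentiate, was higher by 7.16 ± 0.78 at equal *Iyd*. Its level was -1.27 to 2.02 on the high arrays. On the low arrays it was -2.83 to -1.40 where *Iyd* was above -3, and -8.41 to -7.67 on the others. *Klf4*, which drives barrier formation, was 0.50, 2.32 and 3.30 against -1.47, -0.48 and 0.61, higher by 2.22 ± 0.26, and *Klf5*, a factor of proliferating epithelial cells, by 2.95 ± 0.25.

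*Tp63*, the master regulator of stratified epithelium, did not follow. Its brighter probe was 1.32, 1.61 and 2.15 on the high arrays and 1.18, 2.01 and 2.45 on the low arrays, a difference of -0.31 ± 0.16 that did not pass, while the second of its 2 probes was higher past the limits. The probes of this gene thus disagree. *Elf3* (2.39 ± 0.68) did not pass either. *Grhl3*, a barrier regulator named from the supplementary column, was higher by 7.65 ± 0.63.

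**Figure D3:**
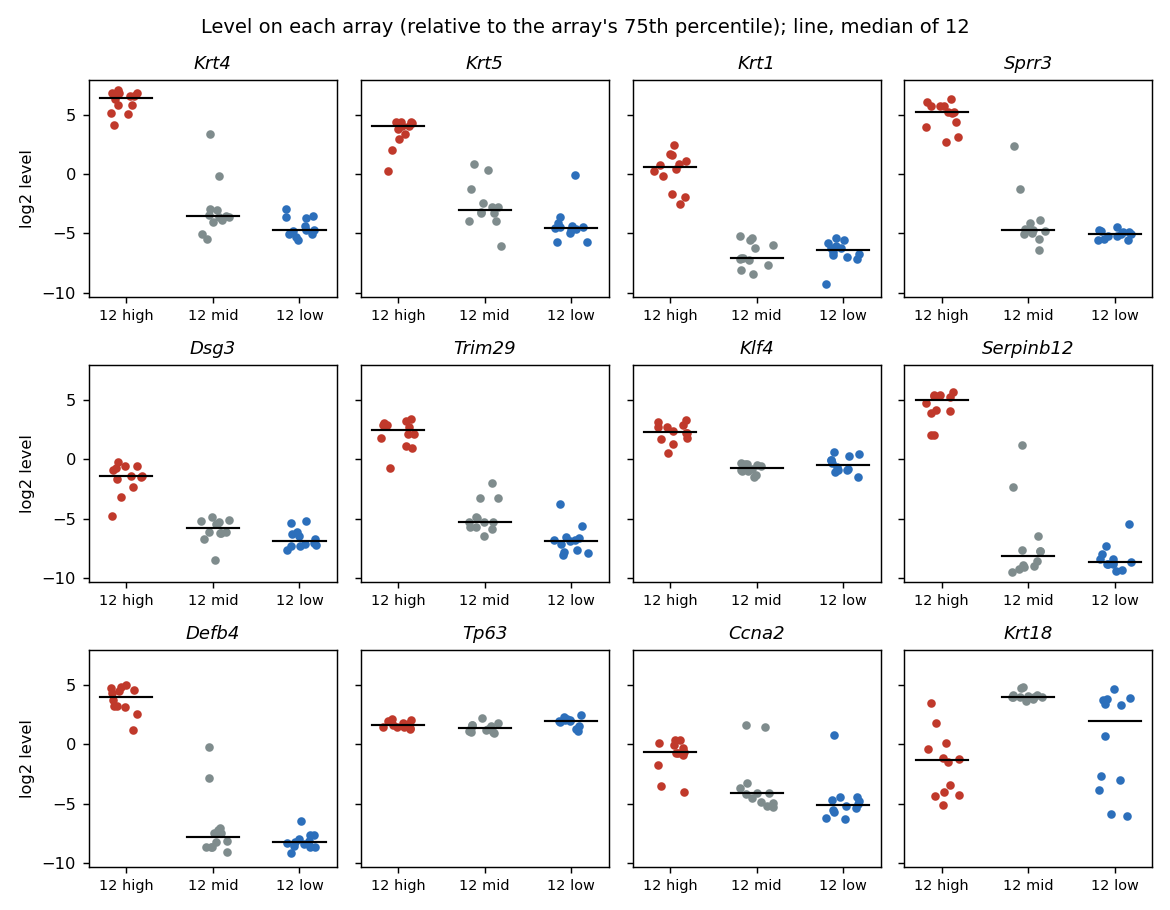
Log2 levels of 12 genes on each array of the high, middle and low sets (points), with the median of 12 arrays as a line. *Krt4*, *Krt5*, *Krt1*, *Sprr3*, *Dsg3*, *Trim29*, *Serpinb12* and *Defb4* separated the high from the low arrays, *Klf4* and *Ccna2* differed with overlap, and *Tp63* (-0.31 ± 0.16) and *Krt18* (0.70 ± 0.90) did not pass the limits.

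Proteases and their inhibitors showed the largest median difference of the lists, 8.21, with 13 of 13 RefSeq-named genes higher past the limits and 10 not overlapping. In outer layers, kallikreins cut the desmosomes so that cells can be shed, and serpins and Kazal inhibitors restrain them. *Serpinb12* was 2.05, 5.0 and 5.72 on the high arrays and -9.44, -8.69 and -5.43 on the low arrays, where 1 of 12 arrays was well above background, and was higher by 12.32 ± 0.46. *Klk8* was 0.73, 4.25 and 5.18 against -7.02, -6.22 and -4.66, higher by 10.02 ± 0.45. *Klk10* was well above background on no low array and at least 556-fold higher. The protease inhibitor *Spink5*, the regulator of epidermal kallikreins, was higher by 6.44 ± 0.36, and *Serpinb5*, maspin, by 8.21 ± 0.50. The smallest difference in the list was that of *Spink7*, 1.54 ± 0.30.

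Of 27 barrier, secreted and surface genes with a RefSeq-named probe, 24 were higher past the limits and none lower, at a median of 5.91, with 17 not overlapping. *Defb4*, a beta-defensin, was 1.2, 4.04 and 5.0 on the high arrays and well above background on no low array, which gives at least 2497-fold. *Lgals7*, the galectin of stratified epithelium, was 3.97, 6.62 and 7.06 against -7.53, -4.98 and -1.87, higher by 11.57 ± 0.54. *Slurp1*, a secreted Ly6 protein of keratinocytes, was higher by 9.46 ± 0.35, and *Ly6d*, a surface protein of the same family, by 11.76 ± 0.54.

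Transport and lipid genes of the barrier differed too. *Aqp3*, the glycerol and water channel of basal cells, was 0.42, 4.06 and 5.25 on the high arrays and -9.07, -7.82 and -5.37 on the low arrays, higher by 10.87 ± 0.54. The lipoxygenases *Alox12b* and *Aloxe3*, which prepare barrier lipids, were higher by 4.30 ± 0.33 and 5.09 ± 0.38. *Fabp5*, an epidermal fatty acid binding protein that was measured on all low arrays, was 4.97, 6.74 and 7.26 against 1.24, 2.28 and 3.26, higher by 3.99 ± 0.23. *Mal* (0.35 ± 0.54), *Clca4* (-0.06 ± 0.37) and *S100a9* (0.90 ± 0.56) did not pass. *S100a8*, its partner in calprotectin, was higher by 2.18 ± 0.56, but not past the limits without rat 1 of the 760 kBq, rat 1 of the 1300 kBq, rat 1 of the 9 kBq or rat 2 of the 340 kBq group (lowest difference 1.72). *Calml5*, named from the supplementary column, was higher by 13.18 ± 0.42.

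Over the 7 squamous lists without the simple keratins, 85 of 92 RefSeq-named genes were higher past the limits, against 8.75% of all genes with a RefSeq name. None was lower, also at an unadjusted p under 0.05, and the median difference was 5.44. The count of higher genes was also 85 among the arrays with *Iyd* under -3 alone, 11 high and 6 low, where *Krt4* was higher by 10.28 ± 0.35. Among the 7 arrays with more *Iyd*, 1 was high, rat 3 of the 1300 kBq group, and *Krt4* was 4.16 there against -5.55 to -3.69 on the 6 low arrays. Of the 97 squamous genes past the limits, named from either source, 74 lay above all 6 of these low arrays on that single array. The median difference of these genes between that array and the mean of the 6 was 3.26. Scalings other than the main one left 82 or 83 of 92 past the limits, slide as a block 82, injected activity as a block 80 and the fit without *Iyd* 79. Within the 5 slides *Krt4* was higher by 10.01 to 11.07, a direction fixed beforehand because the sets did not overlap for this gene. Slides 4 and 5 held 1 low array each. On slide 5, 83.5% of the probes higher past the limits and 61.2% of the lower ones kept their direction.

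**Figure D4:**
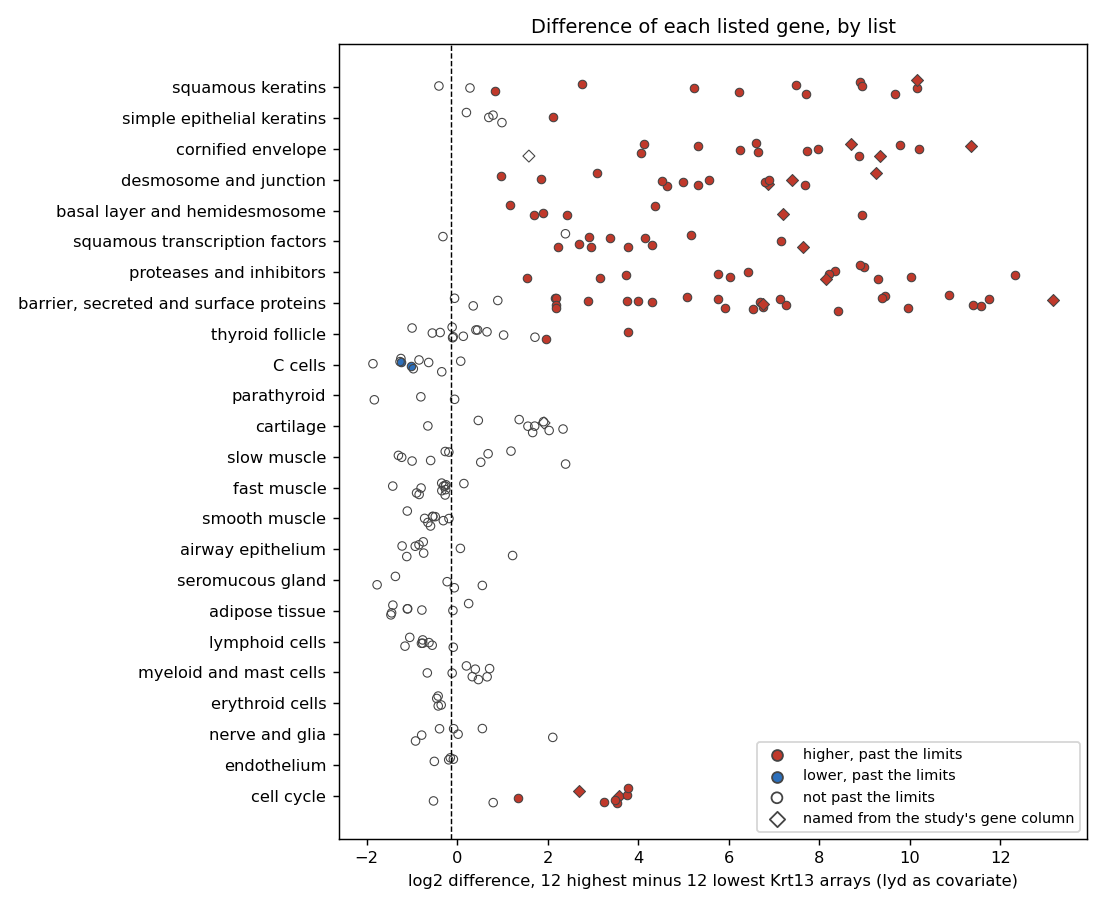
Log2 difference of each listed gene between the 12 high and 12 low arrays with *Iyd* as covariate, 1 row per list; filled points passed the limits, diamonds were named from the study's gene column, and the dashed line is the median of all probes (-0.13). The 7 squamous lists reached from -0.40 to 13.18, whereas the muscle, fat, blood, nerve and vessel lists had no filled point.

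Genes of the cell cycle were also higher. Of 8 with a RefSeq-named probe, 6 were higher past the limits and none lower, at a median of 3.37, and the sets overlapped in all of them. Over all genes with a RefSeq name, 8.75% were higher. *Ccna2*, cyclin A2, was -4.01, -0.67 and 0.38 on the high arrays and -6.26, -5.07 and 0.84 on the low arrays, higher by 3.77 ± 0.72. *Cdk1*, the mitotic kinase, was higher by 3.52 ± 0.62, and *Ccnb1*, its cyclin, by 3.76 ± 0.62. *Aurka* (1.35 ± 0.36) passed in 8 of the 24 fits with 1 array left out, and *Tpx2* (-0.52 ± 0.46) and *Bub1* (0.80 ± 0.40) did not pass. With injected activity as a block 3 of 8 passed, and *Ccna2* was not among them (3.14). *Mki67* (2.69 ± 0.58) and *Top2a* (3.58 ± 0.67) were named from the supplementary column and were higher.

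Few markers of other tissues of the neck passed the limits. Of 14 follicle genes, 2 were higher at equal *Iyd*, against 8.75% of all 15146 genes with a RefSeq name. They were *Cdh16*, a cadherin of follicular cells, by 3.77 ± 0.64 and *Duox2*, the oxidase that supplies hydrogen peroxide for iodination, by 1.96 ± 0.54. *Duox2* passed in 7 of the 24 fits with 1 array left out. The mean of the 14 genes was -4.16, -3.91 and 1.63 on the high arrays and -5.38, -1.35 and 2.25 on the low arrays. Among all genes with a RefSeq name, 4.71% were lower past the limits. Of 10 genes of calcitonin-producing C cells, *Ret* (-1.02 ± 0.26) and *Scg3* (-1.25 ± 0.32) were lower. Each lost the limits in at least 5 of the 24 fits with 1 array left out, and no C cell gene passed with slide or activity as a block.

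The cartilage list, which holds genes of the tracheal and laryngeal rings, had a mean of -3.86, -1.13 and 0.29 on the high arrays and -5.46, -4.19 and -0.40 on the low arrays. None of its 9 RefSeq-named genes passed (limma), though 5 were higher at an unadjusted p under 0.05. The share of all probes higher at that p is not given here, so the count was not read as particular to cartilage. The median of the list was 1.67. The parathyroid list was -7.78, -6.83 and 3.60 against -7.53, -0.64 and 3.95, and none of its 3 genes passed, nor at an unadjusted p under 0.05. The part of these tissues in the squamous differences was not tested beyond the fit with the parathyroid and cartilage means as covariates, in which 2073 probes were higher.

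Over all 24 arrays no gene of the muscle lists passed the limits. The fast muscle list had a mean of 5.86, 6.81 and 7.33 on the high arrays and 1.82, 7.09 and 7.58 on the low arrays, and none of its 12 genes passed (limma, 1 lower at an unadjusted p under 0.05). None passed among the 10 slow muscle, 9 smooth muscle, 8 airway, 5 gland, 8 adipose, 8 lymphoid, 8 myeloid and mast cell, 4 erythroid, 7 nerve and 4 endothelial genes. At an unadjusted p under 0.05, 5 of the 8 adipose genes were lower, and no other of these lists had more than 3 genes in 1 direction. The share of all probes lower at that p is not given here, so the adipose count was not read as particular to that list. Among the arrays with *Iyd* under -3 alone (11 high, 6 low), however, genes of these lists were lower past the limits, namely 5 of 9 smooth muscle, 4 of 12 fast muscle, 2 of 7 nerve and 1 each of the slow muscle, airway and adipose genes, and 1 myeloid gene was higher. Lower probes were also more numerous over the whole array in this setting than in the main fit (number given below). The counts by list were therefore not read as particular to these lists. *Bpifa1*, a secreted protein of upper airway epithelium, ranged from -4.10 to 7.27 on the high arrays and from -4.20 to 6.54 on the low arrays.

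**Figure D5:**
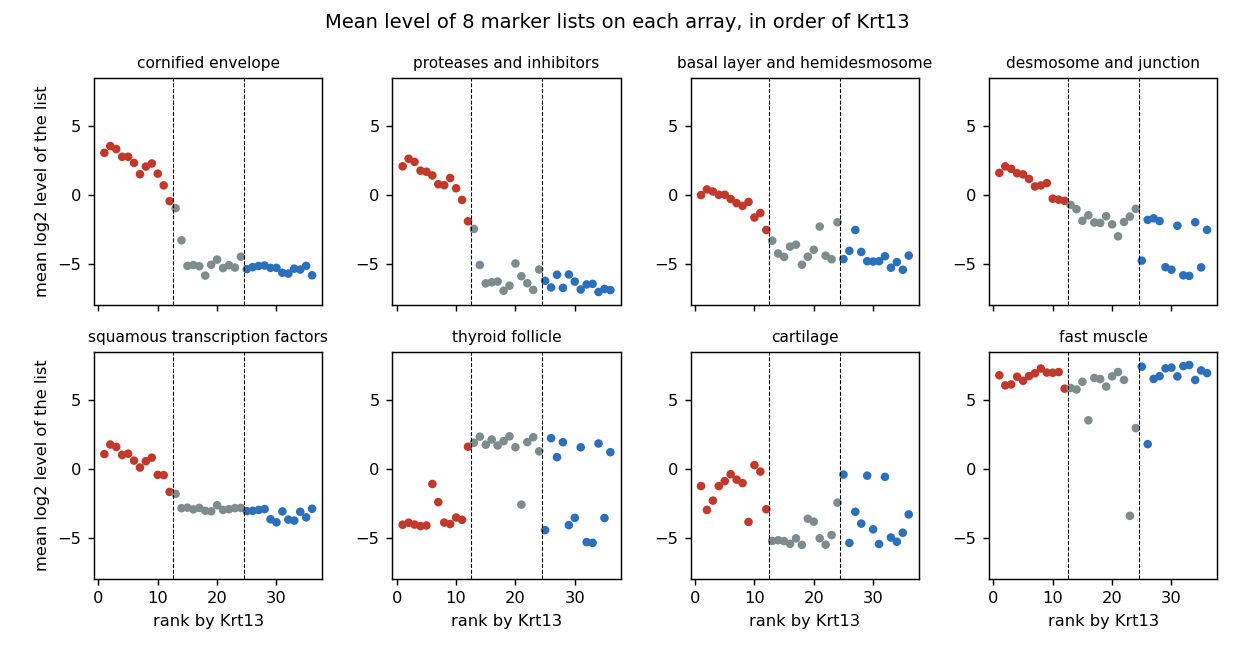
Mean log2 level of the genes of 8 marker lists on each array, against the rank by *Krt13*; dashed lines separate the 12 highest, 12 middle and 12 lowest arrays. The cornified envelope mean dropped from -0.44 at rank 12 to -0.96 at rank 13 and -3.30 at rank 14, and the follicle mean rose to 1.63 at rank 12, the highest value among the high arrays.

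Outside the lists, the 10 named genes with the largest differences in the higher direction were *Mt4*, *Stfa3*, *LOC102552128*, *Asprv1*, *RGD1560559*, *Serpinb3a*, *LOC102552326*, *C20h6orf15*, *Krt6c* and *Psapl1*. The sets did not overlap in any of them. *Mt4*, the metallothionein of stratified squamous epithelium, was 4.73, 6.68 and 7.30 on the high arrays and -8.98, -8.04 and -2.78 on the low arrays, higher by 13.74 ± 0.60, the largest difference of all probes past the limits. *Asprv1*, a protease of the outer epidermis that processes filaggrin, was higher by 12.13 ± 0.53 (named from the supplementary column). *Stfa3*, a relative of cystatin A, was higher by 12.18 ± 0.43. *Krt6c*, an inducible keratin, was higher by 10.79 ± 0.66, with all 3 of its probes past the limits. *RGD1560559*, also named from the supplementary column, was well above background on no low array and at least 2898-fold higher.

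In the lower direction the differences were smaller, and the sets overlapped in all 10 named genes. These were *Mettl21c*, *Lhx2*, *Lbx1*, *Mss51*, *Atp1b2*, *Xkr6*, *Padi2*, *Iqcg*, *Slc25a53* and *Plek*, of which *Lhx2*, *Mss51* and *Xkr6* kept the limits in all 24 fits with 1 array left out. *Lhx2*, a LIM homeobox factor, was -8.55, -7.21 and -4.44 on the high arrays and -5.46, -4.42 and -2.28 on the low arrays, with a difference of -3.29 ± 0.45. *Mss51*, a gene of skeletal muscle, was -1.75, -0.35 and 2.26 against -1.18, 2.26 and 5.16, with -3.01 ± 0.63. The largest of all, *Mettl21c*, a methyltransferase of skeletal muscle, had -3.87 ± 1.05 and passed in 9 of the 24 fits. No gene of the muscle lists passed the limits over all 24 arrays.

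The 12 high arrays were not equal among themselves. *Krt13* had an SD of 0.82 over them, and the 97 squamous genes past the limits had SDs from 0.56 to 2.12, with a median of 1.19. In 83 of the 97 genes the lowest of the 12 arrays was rat 3 of the 1300 kBq group, the array with the least *Krt13* and, with an *Iyd* level of 0.43, the only high array above -3 for that gene. *Krt5* there was 0.25, the lowest of the 12. *Calml5* kept closest to *Krt13*, with an SD of 0.15 for the difference between both levels, and *Fabp5* followed with 0.21. *Krt16* was among the least tied to it (1.58, and 1.64 without rat 3 of the 1300 kBq group). *Rhcg*, an ammonia transporter, had a larger value (2.42) that rested on that rat, in which it was highest, and had 0.87 without it.

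The 12 middle arrays did not enter the comparison of sets, but the same *Krt13* ranking placed them. Part of the pattern was seen on the array nearest to the high set. Rat 1 of the 260 kBq group, just outside the high set, lay above all 12 low arrays for 47 of the 92 RefSeq-named squamous genes, against 4.53% of all probes and 19.1% of the probes that were higher past the limits. This held for 11 of 11 cornified envelope genes, 17 of 27 barrier genes and 9 of 13 protease and inhibitor genes, but for 4 of 12 keratins, 3 of 11 junction genes, 2 of 12 transcription factors and 1 of 6 basal layer genes. Its *Sprr3* level was 2.35 and its *Krt4* level 3.40, while *Krt5* was -1.25 and *Col17a1* -3.19. The lists differ in how much of each transcript the low arrays held, so these counts were not set against each other in a test.

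Across the 12 middle arrays, with *Krt13* from -5.33 to 3.42 as a continuous term and *Iyd* as covariate, 6 of 30365 probes had a positive slope at an adjusted p under 0.01 (0.0198%) and none a negative slope (limma; 294 and 198 at an unadjusted p under 0.05). *Krt4* rose by 0.86 ± 0.06 (SE, 12 arrays) per unit of *Krt13* and *Sprr3* by 0.83 ± 0.09, and the other 4 probes had no gene name here. Of the 92 squamous genes 72 had a positive slope, against 33.6% of all probes. The count depended on single arrays. It was 0 without rat 1 of the 260 kBq group, 1 without rat 2 of that group, 3 without rat 4 of the 1300 kBq group, 11 without rat 4 of the 340 kBq group, 32 without rat 2 of the 9 kBq group and 2 without each of the other 7 arrays. Without both rats of the 260 kBq group, at ranks 13 and 14, none passed (limma; 226 positive and 950 negative at an unadjusted p under 0.05), with 37 of the 92 slopes positive against 42.3% of all probes.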

How the data were processed

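Total RNA of 36 thyroid samples, 1 per rat, had been labelled with Cy3 and hybridised to Agilent SurePrint G3 Rat 8x60K arrays. Per the file headers, the authors extracted the deposited intensity values with Feature Extraction 10.7.3.1. The deposited matrix holds intensity values normalized by the authors, with equal sorted values in all columns; the submitters' processing notes name Partek and the methods Nexus Expression, and which made it is not given in the sources used here. Control spots and outlier spots were left out, log2 of the processed intensity was taken, the array's 75th percentile subtracted and spots of a probe averaged. Of 30367 probes, 30365 were tested; 99 lacked a value on some array and were fitted on the remaining arrays. No pair of arrays held the same values (correlations 0.865 to 0.991).

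Of the probes, 17990 were named through RefSeq accessions, 323 through the gene column of the study's supplementary table, and 12054 had no name. A gene is represented by its probe with the highest mean. Named genes are those of the fixed lists and, outside them, the 10 higher and 10 lower with the largest differences past the limits.

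The 12 highest and 12 lowest arrays by *Krt13* (1 probe) were compared with limma 3.58.1 in R 4.3.3, with *Iyd* as covariate, Benjamini-Hochberg adjustment over all probes, and the limits of the study's methods (adjusted p 0.01, 1.5-fold). Injected activity, slide (5) and scan day (2) were tested by two-sided permutation. The functions were tested on simulated data. The members and lists, which cover 24 gene sets and tissues, were chosen with earlier results of these data known. Alternatives covered scaling, background, filter, covariates, blocks, set size, ranking gene, limits and single arrays left out. The build in the file headers is rn4; promoter windows come from RefSeq on GRCr8. Results for some withheld genes are not reported here.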

Additional observations from a re-analysis of the deposited data

Results flagged for a closer look

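The spread of *Krt13* and *Krt4* within groups of 4 rats was examined with Dixon's ratio against its critical value for 4 samples. Chance would mark about 1 in 20 of independent tests on normally distributed levels. *Krt13* split the arrays at a gap and *Krt4* followed it, so this share is no yardstick here. A single rat stood far from the other 3 in 5 of the 18 tests. *Krt13* was 6.51 in rat 2 of the 88 kBq group, 6.79 in rat 4 of the 170 kBq group and 5.90 in rat 3 of the controls, each against 3 group mates below -4. *Krt4* was 6.62 and 6.89 in the same rats of the 88 and 170 kBq groups. All are high arrays of the comparison.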

How the results depend on the processing

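The higher probes were the stable side of the comparison. Their number stayed within 1.5 times of 2245 in all alternatives except with 18 arrays per set (1273) and with arrays ranked by *Krt4* (1476), and of the 24 fits with 1 array left out the lowest gave 1792 and the highest 2445. The lower probes (1329) numbered 4011 with median centring, 561 without *Iyd*, 864 with the muscle lists as covariates, 613 with the parathyroid and cartilage lists, 684 with injected activity and 816 with slide as a block, 3451 with 9 and 146 with 18 arrays per set, 293 with ranking by *Krt4*, 2917 at an adjusted p under 0.05, 404 when a 2-fold difference was required, and 462 to 1996 with 1 array left out. In alternatives added after seeing the data they numbered 3750 among arrays with *Iyd* under -3 and 575 for the 13 highest against the 22 lowest arrays; the cause was not tested. Ranking by *Krt4* turned the median of the simple keratins to -0.56. Among the middle arrays 6 probes became 35 with quantile normalization, 18 without *Iyd* and 0 without both arrays at ranks 13 and 14 (an alternative added after seeing the data), and 0 to 32 with 1 array left out; the negative count stayed at 0. Of 260 listed and named genes, 130 had passed, of which 114 passed in all 24 fits with 1 array left out and none changed sign. *Ccna2* did not pass with activity as a block (3.14), 18 arrays per set (1.64), ranking by *Krt4* (2.45) or 13 against 22 arrays (2.63).

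Animal numbers recur in every group but mark nothing shared: deviations from group means correlated at a median of -0.027 for the same and -0.030 for different numbers. With animal number as a replicate block, 2077 probes were higher and 1476 lower, and 0 passed among the middle arrays. The label tests kept their side of 0.05 with quantile normalization, median centring, the authors' matrix and *Krt4* in place of *Krt13*. Dim probes limit the low side: 403 of the 1329 lower probes were not well above background on all 24 arrays.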

Other observations

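Further gene families, searched by symbol after the main comparison had been seen and described without a test of the family, differed in how many members were higher on the high arrays. Against 8.75% higher and 4.71% lower among 15146 genes with a RefSeq name, 8 of 10 measured interleukin 1 family genes were higher past the limits and none lower. *Il36b*, an epithelial alarm cytokine, was higher by 7.88 ± 0.47 and *Il1a* by 5.10 ± 0.51, while *Il18* differed by 1.86 ± 0.30. *Ereg*, a growth factor of the epidermal growth factor family, was well above background on no low array and had levels of -5.46, -1.65 and -0.40 on the high arrays; with *Nrg1* (1.5 ± 0.36) it was 1 of 2 higher among 9 ligands of that family.

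Of 22 enzymes of ceramide and acylceramide synthesis, which supply the lipid barrier of cornified epithelium, 12 were higher and none lower. *Degs2* differed by 7.49 ± 0.73, *Elovl4* by 4.41 ± 0.38 and *Pnpla1* by 3.89 ± 0.37. Among 17 Wnt ligands 6 were higher, led by *Wnt10a* (6.61 ± 0.51), and 2 lower, *Wnt9a* and *Wnt1*. Of 16 connexins 5 were higher. *Col7a1*, the anchoring fibril collagen beneath squamous epithelium, was higher by 2.15 ± 0.33. It was the 1 higher among 18 collagens with a RefSeq-named probe, and 1 of these, *Col4a4*, was lower. *Col17a1*, named from the supplementary column and higher past the limits, is not counted among these 18. The other families searched had 5 higher and 2 lower of 23 glutathione transferases, 3 and 2 of 33 chemokines, 2 and 1 of 17 integrins, 1 and 1 of 16 aldehyde dehydrogenases, 2 higher of 8 Notch receptors and ligands and 1 of 2 mucins. Of 21 matrix metalloproteinases 1 was lower.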
